A study of Homo sapiens with 18 samples.

Results

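The genes described here are the 8 troponin genes TNNT1, TNNT2, TNNT3, TNNC1, TNNC2, TNNI1, TNNI2 and TNNI3, together with STAC and STAC2. They are 10 of the 61541 genes in both count tables, and their rows were found by matching the Ensembl identifiers to GENCODE symbols. The set was put together after their levels in SP and control cells had been seen, so the 4 comparisons of SP with control are given for these genes as a description, without p-values. RNA was sequenced from A549, a human lung adenocarcinoma cell line of epithelial origin, labelled wild type and kept in high-glucose DMEM with serum. One table held untreated cells of day 3 and cells in 5 mM sodium propionate (SP, the salt of a short-chain fatty acid) for 3 or 12 days. The second one held untreated cells of 24 h and cells in 5 mM SP for 3 or 24 h. All 6 groups had 3 libraries. No untreated group of 12 days or of 3 h was analysed here, so SP 12 days was set against the control of day 3 and SP 3 h against the control of 24 h, and in these comparisons SP and the difference in time cannot be told apart. The study calls the libraries of the 3 and 24 h experiment biological replicates, and the labels do not say whether the libraries of a group came from separate cultures, so p-values measure the spread between these libraries.

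Troponin is the calcium switch of the thin filament of striated muscle. Troponin C binds calcium, troponin I inhibits the interaction of actin with myosin, and troponin T anchors the complex to tropomyosin. Each subunit has forms for fast skeletal, slow skeletal or cardiac muscle. STAC proteins carry SH3 domains and bind L-type calcium channels. STAC3, which was not among the 10 genes, is the form needed for excitation-contraction coupling in skeletal muscle, while STAC and STAC2 are known mainly from neurons.

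Depth was 14187401 to 43765330 counted reads per library, and mitochondrial genes held 5.82 to 7.04% of the reads in the table of 3 and 12 days and 3.15 to 4.11% in the table of 3 and 24 h. No library was a copy of another library of its group, as the replicate pairs differed by more than sampling noise. The epithelial identity of the cells was visible in all libraries, with the keratins KRT8 and KRT18 detected in 18 of 18. The myogenic factor MYOD1 had at most 1 read in any library, as did MYOG, and MYF5 and the fusion protein MYMK had 0 reads in all libraries. Reads per library and CPM, the reads scaled to a common library size with TMM factors, are given below, and levels of different genes are compared only as RPKM, which divides by the exon length.

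The troponin genes lie in pairs in the genome, given here on GRCh38. TNNT1 (chr19:55132698-55149206, minus strand) and TNNI3 (chr19:55151767-55157773, minus strand) are 2.56 kb apart. TNNT2 (chr1:201359008-201377764) and TNNI1 (chr1:201403784-201429866), both on the minus strand, are 26 kb apart. TNNI2 (chr11:1838981-1841680) and TNNT3 (chr11:1919703-1938706), both on the plus strand, are 78 kb apart. TNNC1 (chr3:52451100-52454041, minus strand) and TNNC2 (chr20:45823214-45833745, minus strand) stand alone, as do STAC (chr3:36380503-36548007, plus strand) and STAC2 (chr17:39210541-39225945, minus strand).

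RefSeq promoter windows, the 250 bases before the start of the gene on GRCh38.p14, were at hand for 4 of the 10 genes, namely TNNT1, TNNI3, STAC and TNNT2. The windows of TNNT1, TNNI3 and STAC are shown because these genes were expressed and because the adjacent pair TNNT1 and TNNI3 can be set against the unlinked STAC. They run 5′ to 3′ on the strand of the gene and stop before the first base annotated as an exon. Capitals mark GC boxes (GGGCGG on either strand) and the TATA box (TATAAA on either strand). The TNNT1 window is chr19:55149207-55149456, that of TNNI3 chr19:55157774-55157982 and that of STAC chr3:36380254-36380502.
TNNT1: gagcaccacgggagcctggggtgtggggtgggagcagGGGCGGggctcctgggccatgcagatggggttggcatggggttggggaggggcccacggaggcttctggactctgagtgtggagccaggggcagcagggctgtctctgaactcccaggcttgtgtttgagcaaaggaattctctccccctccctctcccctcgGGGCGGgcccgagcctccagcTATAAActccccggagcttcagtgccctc
TNNI3: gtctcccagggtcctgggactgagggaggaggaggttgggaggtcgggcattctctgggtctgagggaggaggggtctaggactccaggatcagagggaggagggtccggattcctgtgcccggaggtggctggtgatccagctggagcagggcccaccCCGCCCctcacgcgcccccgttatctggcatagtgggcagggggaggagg
STAC: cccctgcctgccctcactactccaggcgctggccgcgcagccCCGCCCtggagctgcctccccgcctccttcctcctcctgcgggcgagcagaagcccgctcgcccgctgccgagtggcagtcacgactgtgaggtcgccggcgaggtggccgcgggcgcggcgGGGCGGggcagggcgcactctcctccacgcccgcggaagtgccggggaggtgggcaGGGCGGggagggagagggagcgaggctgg

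The TNNT1 window held a TATA box beginning 29 bases before the start and 2 GC boxes, beginning at 213 and 50 bases. The TNNI3 window held 1 GC box, at 91 bases, and the STAC window held 3, at 208, 86 and 30 bases. Of 35116 promoter windows of this length, 42.6% held a GC box and 10.7% a TATA box. The E-box (CANNTG), the general site of myogenic helix-loop-helix factors, occurred 1 time in the TNNT1 window, 1 time in TNNI3, 4 times in TNNT2 and 0 times in STAC, against 61.8% of all windows with at least 1. The M-CAT element (CATTCC on either strand), a site of TEAD factors, was found in the TNNT2 window alone of the 4 and in 11.9% of all windows. The last 84 bases of the TNNT2 window are annotated as TNNT2 exon. Its M-CAT match, beginning at 81 bases, and its E-box beginning at 41 bases lie in this part. The CArG box and the MEF2 site were found in 0 of the 4 windows, and in 1.16% and 2.8% of all windows. None of the GC boxes or the TATA box overlapped an E-box. These are matches of letters and say nothing about binding.

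Of the 10 genes, 5 passed the expression filter in both tables and are called expressed here: TNNT1 for troponin T, TNNC1 for troponin C, TNNI3 for troponin I, and STAC and STAC2. The troponin genes among them are slow skeletal or cardiac forms. STAC2 had at most 5 reads in any control library, under the minimum count of 10 of the filter. It passed only through the SP libraries, where it was high. The other 5 genes stayed near 0 reads in all groups. TNNT2 (cardiac troponin T) had 1 read in all 18 libraries together, as did TNNT3 (fast skeletal troponin T). TNNI1 (slow skeletal troponin I) had 8 reads in total and at most 2 in a library, and TNNI2 (fast skeletal troponin I) had 13 and at most 4. TNNC2 (fast skeletal troponin C) had 33 reads in total and at most 6 in a library, a value reached in SP 3 h replicate 3 and SP 24 h replicate 2. For a gene with 0 reads in all 18 libraries, such as MYF5, their total depth allows a level of up to 0.00757 CPM. This limit covers counting error only. It does not apply to these 5 genes, which each had at least 1 read, or to a single group of libraries.

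**Figure D1:**
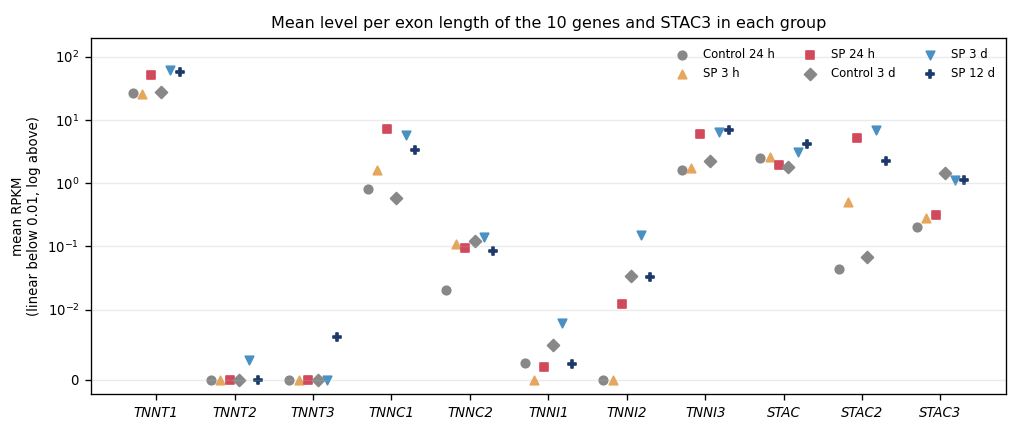
Mean RPKM of the 10 genes and of STAC3 in the 6 groups (n = 3 libraries each), on an axis that is linear below 0.01 and logarithmic above. TNNT1 was highest in each group, between 25.5 and 61.3 RPKM, and TNNT2, TNNT3 and TNNI1 stayed below 0.01 RPKM.

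Per exon length, TNNT1 stood above the other genes in every group. In the day 3 control it reached 27.4 ± 3.03 RPKM (SD, n = 3), followed by TNNI3 at 2.25 ± 0.140, STAC at 1.78 ± 0.113, TNNC1 at 0.573 ± 0.0298 and STAC2 at 0.0670 ± 0.0228. In SP 3 days the order was TNNT1 at 61.3 ± 2.64 RPKM, STAC2 at 6.97 ± 0.128, TNNI3 at 6.45 ± 0.725, TNNC1 at 5.69 ± 0.976 and STAC at 3.06 ± 0.225. The neighbours STAC2 and TNNI3, and TNNI3 and TNNC1, lay within their spread of each other in that group. STAC2 thus stood last of the 5 genes in the control, where it had 3 to 5 reads per library, and second in SP 3 days. In SP 24 h the levels of TNNC1 (7.08 ± 1.46 RPKM), TNNI3 (5.98 ± 1.07) and STAC2 (5.13 ± 1.58) lay within their spread of each other, above STAC at 1.93 ± 0.230. The 3 subunits were far from equal, as TNNT1 exceeded TNNC1 and TNNI3 in all groups.

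TNNT1, slow skeletal troponin T, had the highest level of the 10 genes in all 6 groups. It had 1338, 818 and 1002 reads in the 3 control libraries of day 3, 2026, 2187 and 2226 reads in SP 3 days, and 1835, 2455 and 2831 reads in SP 12 days. Scaled to library size, this was 58.2 ± 6.43 CPM in the control (SD, n = 3), 130.0 ± 5.60 in SP 3 days and 121 ± 4.82 in SP 12 days. The SP libraries all lay above the control libraries, as for 30.5% of tested genes at 3 days and 28.7% at 12 days, with log2 fold changes of 1.16 (SE 0.088) at 3 days and 1.06 (SE 0.088) at 12 days. In the other table TNNT1 had 1170, 1056 and 1498 reads in the control of 24 h, 738, 1593 and 1429 in SP 3 h, and 2742, 4309 and 3364 in SP 24 h. The level at 3 h overlapped that of the control (54.0 ± 3.69 against 56.8 ± 4.78 CPM), and at 24 h it was 107 ± 9.24 CPM, above all control libraries (as for 24.6% of tested genes), with a log2 fold change of 0.91 (SE 0.11).

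TNNC1, the troponin C of slow skeletal and cardiac muscle, was barely present without SP. The control libraries of day 3 held 13, 11 and 11 reads, those of SP 3 days 97, 95 and 130, and those of SP 12 days 53, 75 and 99. Levels were 0.654 ± 0.0339 CPM in the control, 6.49 ± 1.11 in SP 3 days and 3.83 ± 0.523 in SP 12 days (SD, n = 3). No SP library overlapped the control, and the log2 fold changes were 3.30 (SE 0.23) and 2.55 (SE 0.24). The control of 24 h held 16, 18 and 27 reads, SP 3 h held 23, 67 and 41, and SP 24 h held 154, 380 and 281. TNNC1 was above the control at 3 h in all 3 libraries, as were 15.6% of tested genes (1.82 ± 0.305 against 0.915 ± 0.0588 CPM, log2 fold change 1.00, SE 0.24) and reached 8.08 ± 1.67 CPM at 24 h (log2 fold change 3.13, SE 0.22).

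TNNI3, cardiac troponin I, had 102, 72 and 73 reads in the control of day 3, 232, 226 and 191 in SP 3 days, and 223, 252 and 349 in SP 12 days. Its level was 4.57 ± 0.286 CPM in the control, 13.1 ± 1.47 in SP 3 days and 14.0 ± 1.45 in SP 12 days (SD, n = 3). The control libraries lay below all SP libraries, with log2 fold changes of 1.52 (SE 0.14) and 1.62 (SE 0.14). In the other table there were 66, 68 and 82 reads in the control, 39, 111 and 106 in SP 3 h, and 239, 585 and 406 in SP 24 h. SP 3 h overlapped the control (3.56 ± 0.785 against 3.32 ± 0.389 CPM), whereas SP 24 h, at 12.2 ± 2.18 CPM, did not (log2 fold change 1.88, SE 0.21). TNNI3 shares 496 exon bases with the gene ENSG00000267110 on the same strand, which had between 0 and 7 reads per library, so reads of these bases may be assigned to either gene.

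STAC2 had the largest log2 fold changes of the 5 expressed genes. It had 3, 4 and 5 reads in the control of day 3, 397, 384 and 403 in SP 3 days, and 95, 101 and 277 in SP 12 days. The summed reads, scaled for depth, were 107 times those of the control at 3 days (95% counting interval 61.1 to 208) and 36.3 times at 12 days (20.6 to 70.7). Levels were 0.230 ± 0.0781 CPM in the control, 23.9 ± 0.439 in SP 3 days and 7.77 ± 3.93 in SP 12 days (SD, n = 3), and replicate 3 of SP 12 days stood above both other libraries. In the other table STAC2 had 3, 3 and 4 reads in the control, 13, 95 and 29 in SP 3 h, and 305, 1036 and 511 in SP 24 h. The ratio was 13.1 at 3 h (6.89 to 27.9) and 124 at 24 h (67.3 to 259), and no SP library of either time overlapped the control. The log2 fold change at 3 h was 3.55 (SE 0.62) with all libraries and 2.78 without SP 3 h replicate 2.

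The values of its relative STAC were smaller. STAC had 147, 127 and 130 reads in the control of day 3, 220, 195 and 228 in SP 3 days, and 274, 369 and 373 in SP 12 days. This was 7.56 ± 0.477, 13.0 ± 0.955 and 17.4 ± 0.947 CPM (SD, n = 3), without overlap between any of the 3 groups, and log2 fold changes against the control of 0.78 (SE 0.12) and 1.21 (SE 0.11). In the control of 24 h it had 209, 165 and 357 reads, in SP 3 h 149, 340 and 270, and in SP 24 h 227, 324 and 238. Here SP 3 h (10.8 ± 0.291 CPM) and SP 24 h (8.16 ± 0.972) both overlapped the control (10.8 ± 1.92), and the log2 fold change at 24 h was −0.41 (SE 0.16). The tables were normalized separately, so the difference between STAC at 24 h and at 3 days was not tested.

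STAC3, the skeletal muscle relative, was present at a low level and shares 225 exon bases with ENSG00000258830. It had 67, 49 and 47 reads in the control of day 3, 42, 39 and 35 in SP 3 days and 47, 36 and 50 in SP 12 days, and in the other table between 4 and 37 reads per library. In edgeR's quasi-likelihood test it did not pass in any comparison with control, with log2 fold changes of −0.37 (adjusted p = 0.173) and −0.39 (0.136) after 3 and 12 days and of 0.49 (0.574) and 0.64 (0.292) after 3 and 24 h. Scaled to library size, the SP libraries of 3 days all lay below the control, as for 30.7% of tested genes. At 12 days, 3 h and 24 h they overlapped the control.

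Taking a Benjamini-Hochberg adjusted p under 0.0001 with a fold change of at least 2 as a call, the thresholds of the study, 4 of the 5 expressed genes were called at 3 days (not STAC), when 8.44% of the 17775 tested genes were called (6.58% higher and 1.86% lower). At 12 days 5 of 5 were called, with a background of 9.11% (6.88% higher). Without control replicate 2 of day 3 the count at 12 days was 3, since TNNT1 and STAC2 were no longer called. STAC2 was also not called at 12 days without control replicate 1 or without control replicate 3. At 3 h 0 of 5 were called in edgeR, as were 0 of all 17377 genes tested, although 4367 genes had an unadjusted p under 0.05 and DESeq2 called 415 genes, 1 of them among the 5. At 24 h TNNC1 and STAC2 were called, with a background of 0.685%. This count of 2 was kept without SP 3 h replicate 2, was 1 without SP 3 h replicate 3 or SP 24 h replicate 1, and was 0 when any other library was left out. The libraries of 24 h shared their replicate number in the control and in SP, and with this number as a block 0 of the 5 genes were called and 2 genes of the whole table in place of 119. A correction for GC content and length moved the share of higher genes among all calls from 77.9 to 61.2% at 3 days, from 75.5 to 62.9% at 12 days and from 90.8 to 65.7% at 24 h, and put TNNT1 under a 2-fold difference at 3 days (0.97) and 12 days (0.98). These counts follow from how the genes were chosen, and nothing is read from them about the genes.

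SP libraries of different times could be compared directly within a table, a contrast that was not used to choose the genes although the same libraries entered those that were. From 3 to 12 days in SP, 3 of the 5 expressed genes changed. STAC2 fell by 1.60 on the log2 scale (SE 0.26, edgeR adjusted p = 0.00492), with all 3 libraries of 12 days below those of 3 days. Without SP 12 days replicate 3 the fall was 2.13. TNNC1 fell by 0.75 (SE 0.17, adjusted p = 0.0141, no overlap). STAC rose by 0.42 (SE 0.11, adjusted p = 0.0254, no overlap), so the relatives STAC and STAC2 moved in opposite directions. TNNC1 no longer passed without SP 3 days replicate 3 (a fall of 0.62, adjusted p = 0.0935) or SP 12 days replicate 1 (a fall of 0.69, adjusted p = 0.0729), with adjusted p between 5.20e-04 and 0.0935 over all settings. STAC no longer passed when any SP 3 days library or SP 12 days replicate 1 or 2 was left out, with a rise of 0.35 to 0.45 and an adjusted p of 0.0717 to 0.143 in these fits, and of 0.00318 to 0.143 over all settings. STAC2 passed under every setting run. TNNT1 (log2 fold change −0.10, SE 0.086, adjusted p = 0.531) and TNNI3 (0.10, SE 0.12, adjusted p = 0.673) did not pass, and their libraries overlapped. At an adjusted p under 0.05, the share of all tested genes was 4.46% for higher and 3.65% for lower at 12 days, and the groups did not overlap for 13.9% (higher) and 12.9% (lower).

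Between 3 and 24 h in SP the 3 troponin subunits and STAC2 rose. For TNNT1 and TNNI3, SP 3 h overlapped the control of 24 h, so this contrast largely repeats a comparison by which the genes were chosen. It shares the SP 24 h libraries with that comparison for every gene, and STAC2 passed the filter only through SP libraries. The values are therefore given as a description, without p-values. TNNC1 increased by 2.13 on the log2 scale (SE 0.21), TNNI3 by 1.76 (SE 0.21) and TNNT1 by 0.99 (SE 0.11). STAC2 increased by 3.27 (SE 0.40). For each of these genes the libraries of 24 h all lay above those of 3 h. STAC had a log2 fold change of −0.41 (SE 0.16), and its libraries of 24 h all lay below those of 3 h. Of all tested genes 11.7% were higher and 8.4% lower at 24 h by edgeR's adjusted p under 0.05, and the groups did not overlap for 23.3% and 21.6%. In RNA from whole cultures, more cells with a transcript and more RNA per cell cannot be told apart.

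Other genes of the same structures were followed with lists from general knowledge. The thin filament partners of troponin (11 genes, 7 tested) moved in both directions. At 3 days 2 rose and 2 fell, at 12 days 3 rose and 2 fell, at 3 h 0 passed and at 24 h 1 rose and 2 fell, by edgeR's adjusted p under 0.05 (background 25.2% higher and 23.3% lower at 3 days, 26.4% and 23.4% at 12 days, 7.39% and 4.11% at 3 h, 16.8% and 12% at 24 h). The nebulin relative NEBL, which binds actin, was the one called, with log2 fold changes of 1.14 at 3 days (SE 0.11) and 1.04 at 12 days (SE 0.11). The median log2 fold change of the list was 0.09 at 3 days and −0.12 at 24 h, against −0.02 and −0.01 over all tested genes. Tropomyosin TPM2, the anchor of troponin T, fell at 3 days (−0.87), 12 days (−0.49) and 24 h (−0.29). It was picked for its role beside troponin T after its values were seen.

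The thick filament, Z-disc and M-band list held 35 genes, of which 11 were tested at 3 and 12 days and 10 at 3 and 24 h. At 3 days 1 of them rose, at 12 days 1, at 3 h 0 and at 24 h 2, none fell and none was called. Most sarcomere genes were thus not expressed at a testable level. Of the 7 skeletal myoblast and myotube markers 0 were tested, and their summed reads were 2 to 5 per library in the control of day 3, 9 to 13 in SP 3 days, 11 to 22 in SP 12 days, 1 to 6 in the control of 24 h, 7 to 10 in SP 3 h and 13 to 26 in SP 24 h. Among the cardiomyocyte markers MYH6 had 1 read in all libraries, NPPA at most 5 in a library and ACTN2 at most 3. NKX2-5, a cardiac homeobox gene, had reads in 18 of 18 libraries and fell by 0.79 at 24 h (edgeR adjusted p = 0.0117), and RYR2 is described with the calcium channels.

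Excitation-contraction coupling, the process in which STAC3 acts, links the depolarised membrane to calcium release. Of 29 genes, 17 were tested at 3 and 12 days and 16 at 3 and 24 h. At 3 days 10 rose and 3 fell, at 12 days 10 rose and 4 fell, at 3 h 1 rose and 1 fell and at 24 h 7 rose and 2 fell. Of all tested genes 25.2% rose and 23.3% fell at 3 days, 26.4% and 23.4% at 12 days, 7.39% and 4.11% at 3 h, and 16.8% and 12% at 24 h. The median log2 fold change was 0.42 at 3 days (−0.02 over all genes) and 0.66 at 24 h (−0.01). The junctophilins tie the plasma membrane to the endoplasmic reticulum. JPH3, a neuronal form, rose by 3.29 and 3.73 on the log2 scale after 3 and 12 days (SE 0.16 and 0.15, edgeR adjusted p = 2.49e-10 and 5.70e-11) and by 1.40 and 3.11 after 3 and 24 h. JPH1, the skeletal muscle form, had 1 read in the control of day 3, 31 in SP 3 days and 71 in SP 12 days, a ratio of 33.7 (5.61 to 1372) and 65.4 (11.4 to 2618).

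Calcium channels of this list moved both ways. The cardiac calcium release channel RYR2 rose by 2.25 at 3 days (SE 0.35) and 2.18 at 12 days (SE 0.35), from 23 reads in the 3 control libraries to 101 and 116. The related RYR3 fell by 2.24 and 1.94 at these times and by 1.28 at 3 h and 1.73 at 24 h. Among subunits of the L-type channel, to which STAC proteins bind, CACNA1D fell by 1.14 at 3 days (edgeR adjusted p = 0.00604) and 2.46 at 12 days (7.44e-05), and CACNA2D1 fell by 1.43 at 3 days, while CACNB1 (0.81 and 0.82) and CACNB3 (0.85 and 0.82) rose. RYR3, CACNA2D1, CACNB1 and CACNB3 were picked after their values were seen.

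Regulators of muscle transcription include the myogenic factors and their partners. Of 29 genes 16 were tested and none was called in any comparison. At 3 days 3 rose and 5 fell, at 12 days 3 rose and 5 fell, at 3 h 2 rose and at 24 h 2 rose and 2 fell. The 8 of 16 that passed at 3 days stand beside 48.6% of all tested genes, and the 8 of 16 at 12 days beside 49.8%. At 3 and 24 h 11.5% and 28.8% of all tested genes passed. The median log2 fold change was −0.09 at 3 and 12 days. Of the TEAD factors, which bind M-CAT elements, TEAD4 fell by 0.65 at 3 days, 0.72 at 12 days and 0.40 at 24 h, and TEAD3 rose by 0.36, 0.30 and 1.01. These were picked from the list after their values were seen.

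Smooth muscle contracts without troponin. Of its genes 7 of 11 tested rose and 0 fell at 3 and at 12 days, 2 rose at 3 h, and 3 rose and 2 fell at 24 h. The share of all tested genes that rose was 25.2% and 26.4% after 3 and 12 days and 7.39% and 16.8% after 3 and 24 h, and 12% fell at 24 h. Calponin CNN1, which binds actin and restrains myosin, rose from 5 to 79 reads per group at 3 days, a ratio of 17.2 (7.05 to 54.3, edgeR adjusted p = 3.12e-05), and from 14 to 365 at 24 h, a ratio of 17.5 (10.3 to 32.3, 7.41e-05). Its ratio was 4.42 at 12 days (1.65 to 14.8, edgeR adjusted p = 0.0250) and 3.88 at 3 h (2.14 to 7.55, adjusted p = 0.0116), and it was not called at these times. The myosin light chain MYL9 rose by 2.55 at 3 days, 2.87 at 12 days and 2.30 at 24 h. Other smooth muscle genes went down at 24 h. With the replicate block 3 of the 11 tested rose and 3 fell. Those that fell were TAGLN (−1.08), SMTN (−0.76) and ACTA2 (−0.56), with edgeR adjusted p = 0.00315, 0.0462 and 0.0335. They were picked after their values were seen. Non-muscle actomyosin and calmodulin genes had 11 of 15 rise and 0 fall at 3 and at 12 days, with 1 rise at 3 h and 4 at 24 h. The share of all tested genes that fell was 23.3% at 3 days, 23.4% at 12 days and 4.11% at 3 h. MYH14, a non-muscle myosin heavy chain of epithelia, rose by 2.17, 1.93 and 1.75 at 3 days, 12 days and 24 h, and MYH9 by 1.10 at 3 days (edgeR adjusted p = 3.79e-07) and 0.97 at 12 days. The medians of these lists were 0.51 and 0.47 at 3 days.

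Markers of other cell types were compared in the same libraries. All 5 epithelial markers rose at 3 days, 12 days and 24 h and none passed at 3 h, and their summed level was 5999 to 7731 CPM in the control of day 3, 11670 to 12545 in SP 3 days and 11013 to 15351 in SP 12 days. Of the fibroblast markers, 2 of 3 tested rose at 3 and 12 days, COL1A1 (2.22 and 1.48) and LUM (2.04 and 3.03), and 2 of 4 rose at 24 h. The sum over the 6 fibroblast markers was 15.2 to 16.4 CPM in the control of day 3, 63.1 to 73.6 in SP 3 days and 35.9 to 64.6 in SP 12 days, and next to SP 3 h and SP 24 h it was 6.67 to 22.1 in the control, 18.7 to 38.7 in SP 3 h and 62.9 to 90.4 in SP 24 h. The defining fibroblast genes COL1A2 and DCN had at most 1 and 6 reads in a library. Of the 5 blood and endothelial markers, CD3E had 0 reads and PTPRC at most 2 in a library. CDH5 and PECAM1 had reads in 18 of 18 libraries, with at most 36 and 28, and VWF had at most 7. At 3 and at 12 days 2 of these markers were tested and 1 fell, and none passed at 3 or 24 h. Over all tested genes 25.2% rose and 23.3% fell at 3 days, 26.4% and 23.4% at 12 days, and 16.8% and 12% at 24 h. The part of the fibroblast markers in the levels of the troponin and STAC genes was not tested.

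The genes next to the 10 genes were examined for the same comparisons, taking the nearest tested protein-coding gene on each side. Next to the TNNT1 and TNNI3 pair, DNAAF3, a dynein assembly factor that lies 0.887 kb beyond TNNI3, rose at 3 days (1.08, SE 0.11, edgeR adjusted p = 1.25e-06), 12 days (0.60), 3 h (1.08, adjusted p = 0.00737) and 24 h (1.71). At 3 h it passed the test while the libraries of TNNI3 overlapped those of the control. PPP1R12C, 15.1 kb from TNNT1 on the other side, rose by 0.53 at 3 days and 0.52 at 12 days, and had 0.35 at 3 h and 0.42 at 24 h, which did not pass.

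SEMA3G, a secreted semaphorin 6 kb from TNNC1, had values close to those of TNNC1. Its log2 fold changes were 3.44 at 3 days (SE 0.27, edgeR adjusted p = 5.44e-08), 2.29 at 12 days (SE 0.29), 0.85 at 3 h (SE 0.31, adjusted p = 0.122) and 3.13 at 24 h (SE 0.28), beside 3.30, 2.55, 1.00 and 3.13 for TNNC1. NISCH, 1.08 kb on the other side, rose by 0.47 at 3 days, 0.36 at 12 days and 0.68 at 24 h. The neighbours of STAC2 had small values, with 0.07 and −0.03 for the ribosomal protein gene RPL19 after 3 and 12 days and −0.17 and −0.36 after 3 and 24 h, none of which passed, and 0.01, −0.23, 0.62 and 0.43 for FBXL20, of which the one at 12 days passed (adjusted p = 0.0326). For STAC, PDCD6IP did not pass in any comparison and TRANK1 passed at 24 h alone (1.00, adjusted p = 0.0444).

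The neighbours of the troponin genes near 0 reads are given next, to be read beside the same shares of all tested genes that passed. LAD1, a gene of the basement membrane that lies between TNNT2 and TNNI1, fell by 3.14 on the log2 scale at 12 days (SE 0.47, edgeR adjusted p = 5.08e-05) and by 1.08 at 24 h. LSP1, between TNNI2 and TNNT3, rose by 2.43 at 24 h (SE 0.42, adjusted p = 0.00286) and had 0.84 at 3 days, which did not pass. UBE2C, a cell-cycle ubiquitin-conjugating enzyme 6.26 kb from TNNC2, fell in all 4 comparisons, by 0.76 and 0.88 after 3 and 12 days and by 0.59 and 0.64 after 3 and 24 h. SNX21, which lies nearer to TNNC2 (0.053 kb), fell by 0.51 and 0.40 after 3 and 12 days. It did not pass after 3 and 24 h (−0.18 and −0.03). TMEM9 passed at 3 days alone (0.25) and PHLDA3 at 12 days alone (0.51). MRPL23 fell at 3 days and 24 h, and CTSD rose at 3 days, 12 days and 24 h.

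The genes whose level followed TNNT1, the most abundant of the set, most closely were ANXA6 (Pearson r of log2 CPM 0.983 and 0.978 in the 2 tables), CYB561 (0.977 and 0.980) and RABAC1 (0.970 and 0.986), of 16653 genes tested in both, each over 9 libraries. The libraries of a table share 3 groups, so these values describe the difference between groups for the most part and carry no test.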

How the data were processed

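The input was 2 tables of raw counts per Ensembl gene for A549 cells, which the authors deposited without normalization (whole numbers with a different total in each library). Per the labels and methods, libraries were made with the NEBNext Ultra kit and sequenced as paired ends, reads were aligned to GRCh38 with STAR 2.7.9a, and genes were counted with featureCounts. Strandedness and multi-mapping are not given in the sources used here. Each table was fitted whole, with its 9 libraries, by edgeR 4.0.16 (R 4.3.3): filterByExpr with a minimum count of 10 (17775 and 17377 genes kept), TMM scaling (factors 0.957 to 1.037), and a robust quasi-likelihood fit on group alone, followed by Benjamini-Hochberg adjustment over every gene tested in the comparison. A gene passed at an adjusted p under 0.05 and was called at an adjusted p under 0.0001 with a fold change of at least 2. The common biological coefficient of variation was 0.0996 in the table of 3 and 12 days and 0.199 in that of 3 and 24 h. DESeq2 1.42.0 was run as an alternative. The fits were checked on simulated counts. RPKM use exon lengths of GENCODE, whose release is later than the annotation of the authors. Counting intervals are exact 95% intervals and cover counting error only.

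The members, lists and tests were chosen with earlier results of these data known. Because STAC3 is on the coupling list it counts there too. Named list genes are those called in a comparison with control, at most 4 per list by the size of the change with a mean count of at least 20, and other names are marked as picked after their values were seen. Pairing was checked from the correlation of the residuals of libraries with equal replicate numbers. Those of SP 24 h and its control gave 0.50, 0.17 and 0.50 for numbers 1, 2 and 3, all above 0.1. The values printed for 24 h nevertheless come from the unpaired fit on group alone, unless the block is named. The replicate number entered as a block only in an alternative fit. With the block 3 smooth muscle genes were higher and 3 lower at 24 h, and the counts of the other lists did not change. Of the other comparisons none had all 3 above 0.1.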

Additional observations from a re-analysis of the deposited data

Results flagged for a closer look

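For 7 results the level in SP differed between 2 times of the same table, by the direct edgeR test of the SP libraries. This contrast holds no untreated group, so time in SP and time in culture cannot be told apart. Between 3 and 12 days the log2 fold change was −0.75 for TNNC1, 0.42 for STAC and −1.60 for STAC2. Between 3 and 24 h it was 0.99 for TNNT1, 2.13 for TNNC1, 1.76 for TNNI3 and 3.27 for STAC2. The values of 3 to 24 h share the SP 24 h libraries with a comparison by which the genes were chosen, so they are a description. Groups of 3 libraries are too small for the check of single libraries that stand apart.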

How the results depend on the processing

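Of the comparisons of single genes, 448 values under other settings kept their direction and their side of the threshold, 21 newly passed it, 27 no longer did and 14 changed sign. Signs changed for values near 0. STAC at 3 h was −0.0168 with DESeq2, −0.0151 with its size factors, −0.00548 with only the 2 groups, −0.0152 with replicate block and GC content and length correction, −0.0321 with the correction alone, and −0.125, −0.00455 and −0.00427 without control replicate 2, SP 3 h replicate 2 or SP 3 h replicate 3 (up to 0.132 with another library left out). TNNI3 at 3 h was −0.0557 with block and correction, −0.0425 with the correction and −0.0409 without SP 3 h replicate 3 (up to 0.258 with another left out). TNNT1 from 3 to 12 days was 0.00322 with block and correction and 0.00353 with the correction, and TNNI3 was −0.00447 without SP 3 days replicate 3 (up to 0.166 with another left out). The causes were not tested.

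Counts of called genes changed most in the table of 3 and 24 h. With DESeq2 they were 415 at 3 h, 1192 at 24 h, 656 for 24 h against 3 h and 95 for 12 against 3 days (in place of 0, 119, 5 and 32). With no filter they were 408, 1131, 602 and 167. At an adjusted p under 0.05 with a fold change of at least 2 they were 803, 2089, 1312 and 252, and 2683 at 3 days and 2837 at 12 days in place of 1500 and 1620. With only the 2 groups they were 4 at 24 h, 2 for 24 h against 3 h and 5 for 12 against 3 days. With the replicate block they were 2 at 24 h, 1 for 24 h against 3 h and 15 for 12 against 3 days, and with block and correction 42 at 3 h, 369 at 24 h, 65 for 24 h against 3 h and 11 for 12 against 3 days. With the correction alone they were 93, 452 and 111 at 3 h, at 24 h and for 24 h against 3 h, and the share of higher calls was 61.2% in place of 77.9% at 3 days, 62.9% in place of 75.5% at 12 days and 65.7% in place of 90.8% at 24 h. The correction moved the median of all genes at 24 h from −0.01 to −0.13. Leaving out 1 library gave 1 to 87 at 24 h, 1 to 12 for 24 h against 3 h, 6 to 300 for 12 against 3 days (300 without SP 12 days replicate 3), 1099 to 2083 at 3 days and 1206 to 1994 at 12 days.

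Of the 5 expressed troponin and STAC genes, the number called at 3 h was 1 with DESeq2 and 2 at an adjusted p under 0.05 with a fold change of at least 2. At 24 h it was 1 with DESeq2 size factors, 0 with only the 2 groups, 0 with the replicate block and 0 to 2 with 1 library left out. For 24 h against 3 h it was 3 with DESeq2, with no filter and at an adjusted p under 0.05 with a fold change of at least 2, and 1 with the correction, with or without the block. For 12 against 3 days it was 1 with DESeq2, with no filter and at an adjusted p under 0.05 with a fold change of at least 2, and 0 to 1 with 1 library left out, and at 12 days it was 3 to 5. With the correction TNNT1 had 0.97 at 3 days and 0.98 at 12 days, under a 2-fold change. At 24 h the alternative settings gave log2 fold changes of 0.52 to 0.99 for TNNT1 and 1.36 to 2.01 for TNNI3. With 1 library left out the lowest were 0.86 and 1.77. A prior count of 0.5 in place of 2 moved log2 CPM by at most 0.57 for STAC2 and 0.0023 for TNNT1. The replicate block changed no other count by more than 1.5 times. Depth limits TNNT2, TNNT3, TNNI1, TNNI2 and TNNC2, whose differences were not detectable.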
